A study of Mus musculus with 27 samples.

Results

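The naive and formative pluripotency genes are a set of 33 listed mouse genes that mark or maintain pluripotent states. It holds 21 genes of the naive side (5 general pluripotency factors, 14 naive factors and targets, and 2 genes of the LIF pathway) and 12 of the formative side (7 formative factors and 5 genes of the FGF-ERK pathway). The members were chosen by symbol, from their known roles, but with earlier results of these data known. Of the 33, 32 were found among the 14006 genes of the stem cell count table. Spry4 was not analysed here. A filter on low counts left 31 members among 11951 tested genes, 21 on the naive side and 10 on the formative side. The member that did not pass it was Fgf5.

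Mouse embryonic stem cells correspond to the pluripotent cells of the early embryo. LIF acts through Stat3, and with Klf4, Klf2, Tfcp2l1, Esrrb, Tbx3 and Nanog it sustains the naive state. Socs3, a target of Stat3, is a feedback inhibitor of this pathway. FGF signalling through ERK moves cells towards the formative state, in which Otx2, Pou3f1, Zic2 and Fgf5 become prominent, while Pou5f1 and Sox2 are shared by both states. N6-methyladenosine (m6A) is a mark on mRNA that Mettl3 deposits and that the cytoplasmic readers Ythdf1, Ythdf2 and Ythdf3 bind, and it is known for promoting decay of mRNAs, those of pluripotency factors among them.

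The series asked whether the Ythdf readers stand in for each other, in stem cells and in germ cells, and only the stem cells were used here. All lines were KH2 cells (C57BL/6 x 129/Sv) and were grown with fetal bovine serum and LIF. The 6 groups were WT, Ythdf1-/-, Ythdf2-/-, Ythdf3-/-, the triple knockout of Ythdf1, Ythdf2 and Ythdf3, and Mettl3-/-, each with 2 poly(A) RNA-seq libraries, named replicates A and B. The labels do not say whether replicates are separate cultures or how many clones a line has. Each p-value therefore measures only counting noise and the spread between these libraries, which may be technical. A difference between lines and a difference between clones cannot be told apart.

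Library totals were 612598 to 1111764 counts, and the highest count of any gene in a library was 1061 to 1933. Same-group libraries differed by less than sampling noise, with a mean chi-square per gene of 0.675 to 0.832 where counting alone gives about 1. Of 60 pairs from different groups 8 also lay below 1, all of them between single Ythdf knockouts. The lowest of these, 0.842, was above every same-group pair, so they do not show whether same-group libraries are separate samples. The labels name replicates, and the libraries were kept as 2 samples per group. The part of this narrow spread in the calls was not tested. Mettl3 fell from 141 and 137 CPM (counts scaled to a common library size) in WT to 18.1 and 15.2 in the Mettl3 knockout, a log2 fold change of -3.07 ± 0.18 (SE). The Ythdf mRNAs were not called lower in the lines that lack them, and since the labels leave the deleted stretch unstated, their levels check nothing. The defining stem cell markers were present in all 12 libraries, the lowest levels being 713 CPM for Pou5f1, 414 for Sox2, 493 for Nanog, 260.3 for Zfp42 and 387 for Esrrb.

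The pentamer GGACT is the sequence context in which m6A is most often found, so the members' transcripts were searched for it on the sense strand. At least 1 GGACT occurred in 96.8% of the 31 tested members and in 91.9% of 11058 tested genes with a coding transcript. The median number of sites was 3 in both, or 1.23 per kb in the members and 1.06 per kb in all genes, and the median transcript was 2564 and 2918 bases long. Spry2, an inhibitor of receptor tyrosine kinase signalling, was the densest member with 7 sites or 3.35 per kb, ahead of Nr5a2 with 6 sites or 3.23 per kb. The Nr5a2 transcript searched was 1859 bases, against 5573 for all its annotated exons joined, so its density can depend on this choice. Fbxo15 and Klf2, which rose in the knockouts described further on, had 1 site each. So did Stat3, which fell in the triple and the Mettl3 knockout, and Pou5f1, Prdm14, Etv4 and Tcl1. Nanog, which also rose, had 4 sites, and Nr0b1 had none. The Fbxo15 transcript searched was 1437 bases, all of them coding, against 2053 for all its annotated exons joined. Sites outside the coding part of Fbxo15 were therefore not counted. A match is a stretch of letters and not a measured m6A site. Coding sites are shown for 9 of the 11 members whose levels differed between the triple and the Mettl3 knockout. Each is the site nearest to the stop codon among those whose printed stretch lies within 1 exon. The sequences are from GENCODE M21 transcripts on GRCm38, 5′ to 3′ along the mRNA with GGACT in capitals.
Nanog, chr6:122713386-122713410, plus strand: acttcggggaGGACTttctgcagcc
Utf1, chr7:139944965-139944989, plus strand: gcatccttggGGACTtgcgccaata
Klf2, chr8:72319475-72319499, plus strand: acaacgtgttGGACTtcatcctctc
Esrrb, chr12:86518878-86518902, plus strand: aggcgctgcaGGACTatgagctgag
Tbx3, chr5:119682908-119682932, plus strand: cggtggctgtGGACTcggggtcgga
Tfcp2l1, chr1:118677416-118677440, plus strand: cctgaagtgtGGACTctgagcagca
Nr5a2, chr1:136845629-136845653, minus strand: ccgccctgctGGACTacacggtttg
Fgf4, chr7:144861704-144861728, plus strand: gcggcgcaggGGACTacctgctggg
Spry2, chr14:105893090-105893114, minus strand: attgactatgGGACTtgtgtgtgct
The Tfcp2l1 site lies 4 bases and the Utf1 site 11 bases from the last base of the stop codon, the Nanog site 155 bases and the Klf2 site 929 bases.

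Levels of different genes were compared only per kb of exon, with all annotated exons of a gene joined. The order can depend on this length. For Klf5 it was 5201 bases, against 3352 in the transcript searched for GGACT, and the SD does not cover this choice. In WT, Pou5f1 was the most abundant member at 573 ± 7.90 CPM per kb (SD, n = 2). Tdh, a threonine dehydrogenase of stem cell metabolism, followed at 252 ± 1.85, then Nanog at 220.0 ± 0.37, Sox2 at 208 ± 9.22 and Klf5 at 171 ± 3.99. Klf2 at 142 ± 8.57, Zfp42 at 139.8 ± 2.04 and Klf4 at 129 ± 6.17 stood close together, the first pair within their spread. On the formative side Spry2 was highest at 91.9 ± 1.89 CPM per kb, followed by Zic2 at 71.6 ± 0.006 and Fgf4 at 65.4 ± 8.43, of which the last pair lay within their spread. The formative factors Otx2 at 8.08 ± 1.75, Sall2 at 4.87 ± 1.08, Fgf5 at 2.69 ± 0.78 and Pou3f1 at 2.10 ± 0.02 were low. Fgf5 gave 9 and 6 counts in the WT libraries, 2 and 0 in the Ythdf1 knockout, 4 and 3 in the Ythdf2 knockout, 1 and 1 in the Ythdf3 knockout, 0 and 1 in the triple knockout and 0 and 0 in the Mettl3 knockout. It was highest in WT, but no fold is given at these counts.

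Many members were called in the triple and the Mettl3 knockout, in both directions, and few in the single reader knockouts. The share of all tested genes called differed between these lines in the same way. A member is called here where edgeR's quasi-likelihood test gave it an adjusted p under 0.05 (Benjamini-Hochberg, across the whole table). In the triple knockout 17 of 31 members were called, 8 higher and 9 lower, where 25.1% of all tested genes were called (13.3% higher and 11.8% lower). The Mettl3 knockout gave 16 calls, 8 higher and 8 lower, against 30.4% of all genes (15.2% and 15.1%). In the Ythdf1 knockout Utf1, Nanog and Fbxo15 were called higher and Klf5 and Zic2 lower, 5 calls in all, where 3.45% of all genes were called (1.95% and 1.5%). In the Ythdf2 knockout Fbxo15, Tdh and Otx2 were higher and Zic2 lower, 4 calls against 1.91% (0.837% and 1.07%). In the Ythdf3 knockout Sox2, Nanog and Fbxo15 were higher, 3 calls against 2.84% (1.74% higher and 1.1% lower). As shares of the members, calls were 54.8% (triple), 51.6% (Mettl3), 16.1% (Ythdf1), 12.9% (Ythdf2) and 9.68% (Ythdf3). The members were listed with earlier results of these data known, so these shares are no independent test. These 5 comparisons share the WT libraries. Many members are abundant genes, and the comparison was repeated above a mean log2 CPM of 7, a limit chosen after the data were seen and passed by 2369 genes, 21 members among them. Of these genes 30.1% were called in the triple and 33.2% in the Mettl3 knockout, and of the 21 members 13 and 12. In the Ythdf1, Ythdf2 and Ythdf3 knockouts 3.59%, 2.74% and 4.81% of the abundant genes and 4, 3 and 3 of the 21 members were called.

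**Figure D1:**
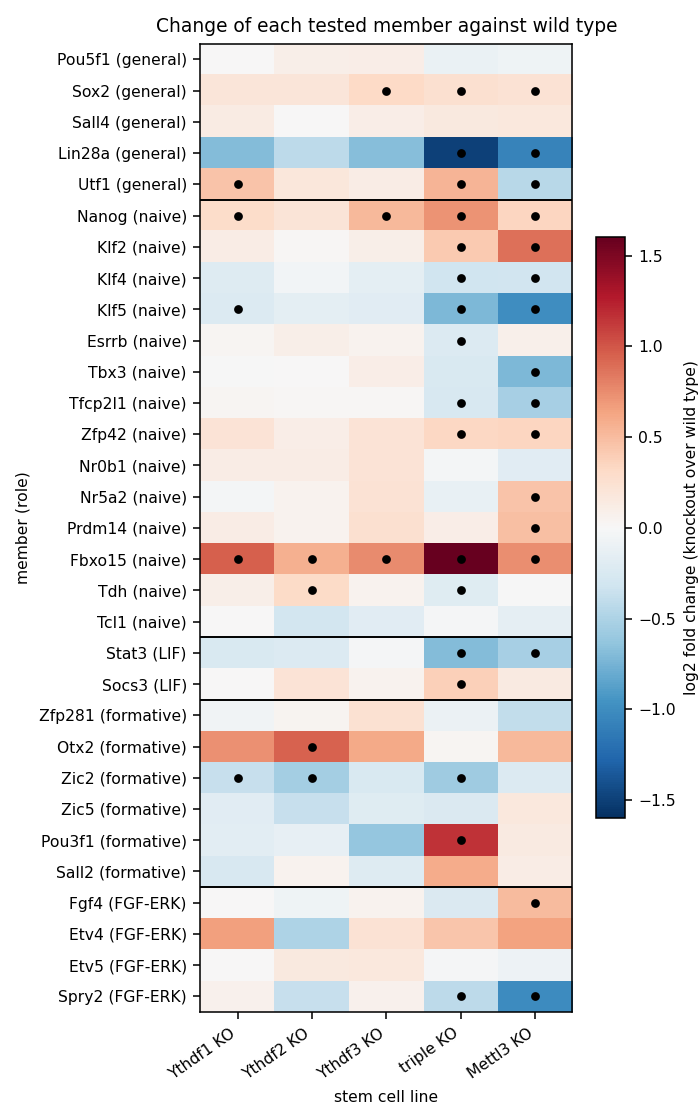
Colour gives the log2 fold change of each tested member (rows, with its role) in each knockout line (columns) over wild type, and a dot marks an adjusted p under 0.05. Fbxo15 is dotted in all 5 columns, and most of the other dots stand in the triple and Mettl3 knockout columns.

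The naive side moved in no single direction. In the triple knockout 7 of its 21 members rose and 7 fell, and the Mettl3 knockout gave the same numbers, 7 and 7. Of its 14 naive factors and targets alone, 4 rose and 5 fell in the triple, and 6 rose and 4 fell in the Mettl3 knockout. The median log2 fold change of the whole naive side was -0.03 in the triple and -0.00 in the Mettl3 knockout, and over all tested genes both medians were -0.00. On the formative side 1 of 10 tested members rose and 2 fell in the triple knockout, and 1 rose and 1 fell in the Mettl3 knockout, with medians of -0.06 and 0.13. In the single knockouts the naive medians were 0.04 for Ythdf1, 0.06 for Ythdf2 and 0.10 for Ythdf3, and the formative medians were -0.02, -0.10 and 0.06 in that order. Called in at least 1 line were 22 members, and 9 were called in none: Pou5f1, Sall4, Nr0b1, Tcl1, Zfp281, Zic5, Sall2, Etv4 and Etv5. Utf1 and Tdh were called higher in some lines and lower in others.

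These calls depended on the tool. DESeq2, on the same filtered counts, kept 4 of the 17 in the triple knockout (Lin28a, Nanog, Klf5 and Fbxo15) and 8 of the 16 in the Mettl3 knockout (Nanog, Klf2, Klf5, Tbx3, Tfcp2l1, Fbxo15, Fgf4 and Spry2). It kept Fbxo15 in the Ythdf1 and Ythdf2 knockouts and Nanog and Fbxo15 in the Ythdf3 knockout. With each of the 12 libraries left out in turn, edgeR kept 7 of the 17 throughout in the triple knockout (Lin28a, Nanog, Klf2, Klf4, Klf5, Zfp42 and Fbxo15) and 10 of the 16 in the Mettl3 knockout (Lin28a, Nanog, Klf2, Klf4, Klf5, Tbx3, Tfcp2l1, Fbxo15, Fgf4 and Spry2).

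Among the general pluripotency factors, Pou5f1 was called in no line, Sox2 rose in 3 lines and Lin28a fell in the triple and the Mettl3 knockout. Pou5f1, the POU factor at the centre of the network, stood at 773 and 788 CPM in WT, 739 and 713 in the triple knockout and 779 and 718 in the Mettl3 knockout. Its log2 fold change was -0.11 ± 0.06 (SE) and -0.07 ± 0.06 there, and neither passed the test. Sall4, a zinc finger partner of Pou5f1, was called in no line and ranged from 177 to 222 CPM over the 12 libraries. Sox2, its partner on DNA, stood at 441 and 414 CPM in WT, 569 and 501 in the Ythdf3, 533 and 486 in the triple and 524 and 484 in the Mettl3 knockout. All 6 of these knockout libraries lay above both WT libraries, and Sox2 rose by 0.31 ± 0.07, 0.25 ± 0.07 and 0.23 ± 0.07 on the log2 scale in those lines. Each of the 3 Sox2 calls was lost without WT replicate B (adjusted p = 0.0761, 0.0806 and 0.0929) and without replicate A of the knockout in question (0.247, 0.165 and 0.115).

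Lin28a, which encodes an RNA-binding protein that blocks let-7 processing, gave 47.7 and 47.3 CPM in WT. It gave 14.0 and 19.2 in the triple and 24.6 and 21.1 in the Mettl3 knockout, all well below WT. The log2 fold change was -1.49 ± 0.26 in the triple knockout (2.82-fold lower, adjusted p = 1.21e-05) and -1.07 ± 0.24 in the Mettl3 knockout (2.10-fold lower, adjusted p = 0.000611). In the single knockouts it stood at 37.8 and 20.8 (Ythdf1), 34.9 and 36.1 (Ythdf2) and 21.8 and 35.9 (Ythdf3). These 6 libraries were below WT too, but no single knockout passed the test, the lowest adjusted p being 0.0753.

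Utf1, a chromatin-bound factor of undifferentiated cells, moved in opposite directions in the triple and the Mettl3 knockout. It stood at 82.0 and 85.6 CPM in WT, 115 and 129 in the triple knockout and 62.4 and 60.9 in the Mettl3 knockout. The triple knockout libraries were above WT and the Mettl3 knockout libraries below, with log2 fold changes of 0.55 ± 0.12 (adjusted p = 0.00325) and -0.44 ± 0.14 (adjusted p = 0.0482). Utf1 was also called higher in the Ythdf1 knockout, at 113 and 117 CPM, by 0.46 ± 0.11 (adjusted p = 0.0468). The call in the triple knockout was lost without its replicate B (adjusted p = 0.115). Leaving out either WT library or either knockout library ended the Ythdf1 call (0.147 to 0.292) and the Mettl3 call (0.0830 to 0.228).

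Of the naive factors, 4 rose in both the triple and the Mettl3 knockout: Fbxo15, Nanog, Klf2 and Zfp42. Fbxo15, an F-box gene long used as a reporter of pluripotency, stood at 223 and 249.6 CPM in WT. It stood at 453 and 462 in the Ythdf1, 363 and 336 in the Ythdf2, 403 and 396 in the Ythdf3, 728 and 699 in the triple and 388 and 398 in the Mettl3 knockout. All 10 knockout libraries lay above both WT libraries, and the triple knockout was highest. Fbxo15 was the only member called higher in all 5 lines, by 0.95 ± 0.07, 0.56 ± 0.08, 0.76 ± 0.08, 1.59 ± 0.07 and 0.74 ± 0.08 on the log2 scale in that order, a 3.02-fold rise in the triple knockout (adjusted p = 7.54e-31).

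Genes of the 2-cell stage move with Fbxo15 in some of these lines. The summed level of 12 such markers, among them Zscan4c, was 65.1 to 82.0 CPM in WT, 648 to 714 in the Ythdf1, 152 to 159 in the Ythdf2, 336 to 378 in the Ythdf3 and 1284 to 1321 in the triple knockout. All 12 were called higher in the Ythdf1 and in the triple knockout, and 9 in the Ythdf3 knockout. In the Ythdf2 knockout only 1 was called, with log2 values of the 12 from -0.41 to 2.42. In the Mettl3 knockout the sum was 82.1 to 92.5 CPM, near WT, while Fbxo15 was 1.67-fold higher. The part of 2-cell-like cells in the levels of the Ythdf lines was not tested. In these bulk samples fewer cells of a type and less RNA per cell cannot be told apart.

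Nanog, a homeodomain factor of the naive network, gave 493 and 494 CPM in WT, and every knockout library lay above that. Its levels were 589 and 623 in the Ythdf1, 561 and 579.6 in the Ythdf2, 694 and 716 in the Ythdf3, 867 and 758 in the triple and 696 and 579.9 in the Mettl3 knockout. Nanog rose by 0.71 ± 0.07 (adjusted p = 3.15e-14) in the triple, 0.35 ± 0.07 in the Mettl3, 0.52 ± 0.07 in the Ythdf3 and 0.30 ± 0.07 in the Ythdf1 knockout, and its value of 0.21 ± 0.07 in the Ythdf2 knockout did not pass (adjusted p = 0.0983). The Ythdf1 call was lost without replicate B of that knockout (0.0822).

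Klf2, one of the Krüppel-like factors of the naive state, differed in size between the lines. It stood at 250.4 and 273 CPM in WT, 351 and 346 in the triple and 535 and 445 in the Mettl3 knockout. The Mettl3 knockout libraries were the highest and the single knockouts, at 257 to 310.5 CPM, were near WT. The log2 fold change was 0.41 ± 0.08 in the triple (adjusted p = 0.000110) and 0.88 ± 0.08 in the Mettl3 knockout (adjusted p = 2.83e-15).

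Zfp42 (Rex1), a zinc finger gene that is a standard reporter of the naive state, stood at 266 and 260.3 CPM in WT, 329 and 331 in the triple and 361 and 314 in the Mettl3 knockout. Both knockouts lay above WT, by 0.33 ± 0.08 and 0.34 ± 0.08 on the log2 scale, the Mettl3 call being lost without replicate A of that knockout (adjusted p = 0.0693). RefSeq promoter windows of 300 bases were at hand for 23 members (32 windows), and Zfp42 was the one member whose window held ATTTGCAT, the octamer bound by POU factors such as Pou5f1, searched on both strands. The octamer occurred in 1.74% of 32851 promoter windows. A STAT motif, TTCCNGGAA, and a TCF motif, CTTTGAT, searched in the same way, occurred in 1.15% and 3.73% of all windows and in 0 of the 32 member windows. The window is shown from RefSeq on GRCm38.p6, chr8:43306960-43307259, minus strand, with the octamer in capitals.
Zfp42: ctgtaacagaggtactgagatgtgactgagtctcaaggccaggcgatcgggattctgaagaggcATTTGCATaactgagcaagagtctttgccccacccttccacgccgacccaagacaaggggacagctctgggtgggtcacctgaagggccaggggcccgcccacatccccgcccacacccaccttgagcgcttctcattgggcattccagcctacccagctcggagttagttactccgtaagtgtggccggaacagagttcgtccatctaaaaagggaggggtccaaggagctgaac

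Nr5a2 and Prdm14 were called higher in the Mettl3 knockout and not in the other lines. Of the differences between these lines only the one from the triple knockout was tested, and it passed for Nr5a2 (adjusted p = 0.000230) but not for Prdm14 (log2 -0.37 ± 0.13, adjusted p = 0.0903). Nr5a2, a nuclear receptor that activates Pou5f1, stood at 147 and 155 CPM in WT and 186 and 221 in the Mettl3 knockout, a log2 fold change of 0.45 ± 0.10. Prdm14, which represses FGF receptor signalling and de novo DNA methylation, stood at 94.6 and 90.9 in WT and 128 and 130.0 in the Mettl3 knockout, a log2 fold change of 0.48 ± 0.11. Both calls were lost without replicate B of the Mettl3 knockout (adjusted p = 0.201 and 0.0834).

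Klf5, Klf4 and Tfcp2l1 fell in both the triple and the Mettl3 knockout. Klf5, the member of the Krüppel-like family with the highest level per kb in WT, stood at 875 and 904 CPM in WT, 562 and 520.2 in the triple and 429 and 462 in the Mettl3 knockout. Its single knockout libraries, at 743 to 833 CPM, lay between WT and these lines. The log2 fold change was -0.72 ± 0.06 in the triple (1.65-fold lower, adjusted p = 3.34e-15) and -0.99 ± 0.07 in the Mettl3 knockout (1.99-fold lower, adjusted p = 8.27e-21). In the Ythdf1 knockout Klf5 fell by 0.22 on the log2 scale, a call lost without WT replicate B or without replicate B of that knockout (adjusted p = 0.127 and 0.280). Klf4, a target of Stat3, stood at 378 and 405 CPM in WT, 307 and 322 in the triple and 307 and 323 in the Mettl3 knockout. All 4 knockout libraries were below WT, with log2 fold changes of -0.31 ± 0.07 in both lines. Klf2 thus rose in the same lines in which Klf4 and Klf5 fell.

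Tfcp2l1, another Stat3 target, stood at 364 and 359 CPM in WT, 307 and 299.8 in the triple and 249.7 and 252 in the Mettl3 knockout. It fell by 0.25 ± 0.08 and 0.53 ± 0.08 on the log2 scale in these lines, the first call being lost without WT replicate A or without either triple knockout library (adjusted p = 0.0678 to 0.141). Tbx3, a T-box factor downstream of LIF and PI3K signalling, stood at 235 and 228 CPM in WT, 206 and 186 in the triple and 141 and 139 in the Mettl3 knockout. It fell in the Mettl3 knockout by 0.72 ± 0.10 on the log2 scale (adjusted p = 1.06e-08). In the triple knockout the log2 value was -0.25 ± 0.09 and did not pass (adjusted p = 0.0773).

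Esrrb, an orphan nuclear receptor that can take the place of Nanog, and Tdh were called lower in the triple knockout. Esrrb stood at 468 and 441 CPM in WT, 391 and 387 in the triple and 509 and 458 in the Mettl3 knockout, log2 fold changes of -0.22 ± 0.07 and 0.08 ± 0.07. The Tdh levels were 477 and 472 CPM in WT, 409 and 422 in the triple, 516 and 443 in the Mettl3 and 603 and 574 in the Ythdf2 knockout, where it rose by 0.31 ± 0.06. In the triple knockout its log2 fold change was -0.19 ± 0.07 (adjusted p = 0.0442). The triple and the Mettl3 knockout differed in a direct test for Esrrb (adjusted p = 0.00311), and the test did not pass for Tdh (adjusted p = 0.0918). The Esrrb call was lost without WT replicate A or either triple knockout library (0.0840 to 0.143), the triple knockout call of Tdh without any of the 4 libraries compared (0.0871 to 0.222), and its Ythdf2 call without replicate A of that knockout (0.0545). Nr0b1 (Dax1), a nuclear receptor that binds Pou5f1, and Tcl1, a coactivator of Akt, were called in no line, and ranged over the 12 libraries from 157 to 231 CPM and from 105 to 139.97 CPM.

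In the LIF pathway the mRNA of the transducer and that of its feedback inhibitor moved apart in the triple knockout. Stat3 stood at 69.4 and 53.5 CPM in WT, 35.9 and 39.7 in the triple and 39.4 and 44.5 in the Mettl3 knockout. All 4 knockout libraries were below both WT libraries, with log2 fold changes of -0.69 ± 0.19 (adjusted p = 0.0133) and -0.53 ± 0.18 (adjusted p = 0.0457). Socs3, which is induced by Stat3 and blocks the receptor's kinase, stood at 134 and 119 CPM in WT and 170.0 and 160.2 in the triple knockout. It rose there by 0.38 ± 0.11, while its value in the Mettl3 knockout, 0.14 ± 0.11, did not pass. The Stat3 calls were lost without WT replicate A or either library of the knockout (0.0650 to 0.203 in the triple, 0.123 to 0.375 in the Mettl3 knockout), and the Socs3 call without WT replicate B or either triple knockout library (0.0670 to 0.176).

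**Figure D2:**
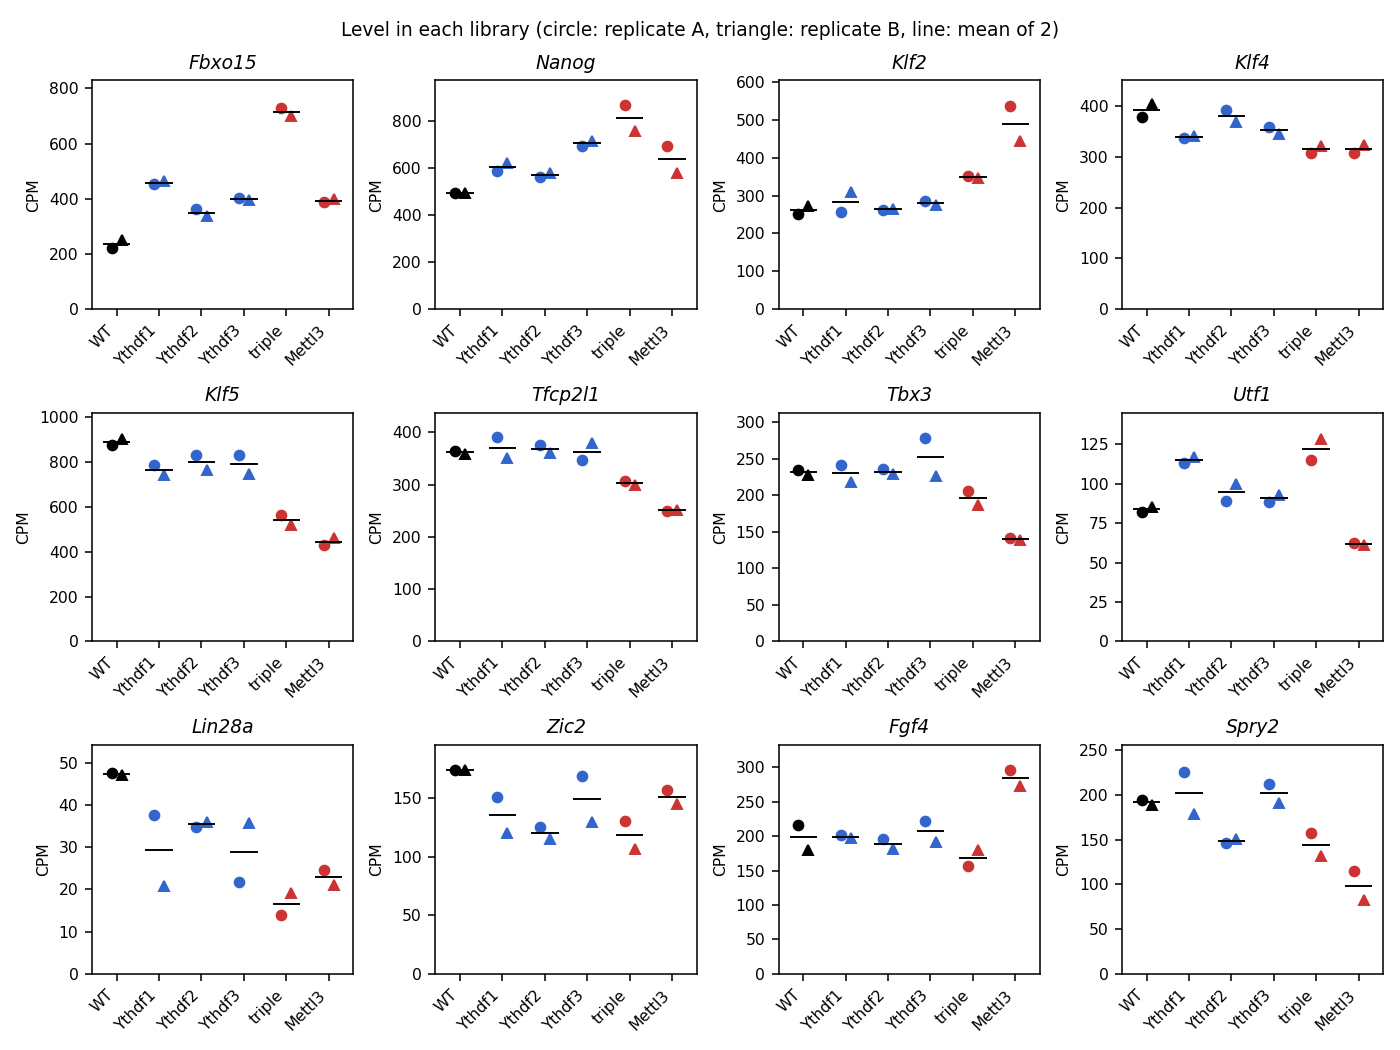
Each panel gives the CPM of 1 member in each of the 12 libraries by line, with replicate A as a circle, replicate B as a triangle and the mean of both as a line. Fbxo15 is highest in the triple knockout and Klf2 in the Mettl3 knockout, while Klf5 is lowest in the Mettl3 knockout.

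Of the 6 tested formative transcription factors, Zic2 fell in 3 lines, Otx2 rose in the Ythdf2 knockout and Pou3f1 rose in the triple knockout. Zic2, a zinc finger factor that accompanies the move to the formative state, stood at 175 and 175 CPM in WT and at 151 and 120.2 in the Ythdf1, 125 and 115 in the Ythdf2 and 131 and 107 in the triple knockout. All of these libraries were below WT, with log2 fold changes of -0.37 ± 0.10, -0.54 ± 0.11 and -0.56 ± 0.11. In the Ythdf3 knockout, at 169 and 130.3 CPM, and in the Mettl3 knockout, at 158 and 145, the values of -0.25 ± 0.11 and -0.22 ± 0.10 did not pass. The Ythdf1 call of Zic2 was lost in 11 of the 12 fits that left out a library, all but the one without replicate A of that knockout (adjusted p = 0.0505 to 0.706). The Ythdf2 and triple knockout calls were lost without replicate B of those lines (0.214 and 0.0731).

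Otx2, which redirects Pou5f1 to formative enhancers, stood at 27.9 and 20.5 CPM in WT and 44.0 and 48.9 in the Ythdf2 knockout, and rose there by 0.94 ± 0.22 (adjusted p = 0.0168). Its values in the Ythdf1 and Ythdf3 knockouts, 0.73 ± 0.22 and 0.61 ± 0.25, did not pass, and in the triple knockout, at 18.7 and 30.1 CPM, its value was 0.03 ± 0.28. The Ythdf2 call was lost without WT replicate B or either knockout library (0.0749 to 0.313). Pou3f1 (Oct6), a POU factor of the formative state, was low, at 8.11 and 8.02 CPM in WT and 21.8 and 15.1 in the triple knockout. It rose there 2.24-fold (log2 1.16 ± 0.41, adjusted p = 0.0348), a call lost without any of the 4 libraries compared (0.0508 to 0.312). Zfp281, Zic5 and Sall2 were called in no line against WT, with log2 values from -0.39 (Zfp281 in the Mettl3 knockout) to 0.60 (Sall2 in the triple knockout). Over the 12 libraries Zfp281 ranged from 46.9 to 78.9 CPM, Zic5 from 93.1 to 139.6 and Sall2 from 18.6 to 42.4.

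In the FGF-ERK group, the ligand Fgf4 and the feedback inhibitor Spry2 moved in opposite directions in the Mettl3 knockout. Fgf4, a target of Pou5f1 and Sox2 that stem cells secrete, stood at 216 and 180.1 CPM in WT, 296 and 273 in the Mettl3 and 156 and 179 in the triple knockout. The Mettl3 knockout lay above WT, by 0.51 ± 0.09 on the log2 scale (adjusted p = 4.01e-06), and the value of -0.23 ± 0.10 in the triple knockout did not pass. Spry2 stood at 195 and 189 CPM in WT, 115 and 82.0 in the Mettl3 and 158 and 131 in the triple knockout. Both lines were below WT, by 1.00 ± 0.12 (2.00-fold lower, adjusted p = 2.71e-10) and 0.42 ± 0.11 on the log2 scale, the second call being lost without replicate B of the triple knockout (0.216). The ETS factors Etv4 and Etv5, targets of ERK signalling, were not called in any line, with log2 values from -0.50 ± 0.38 (Etv4 in the Ythdf2 knockout) to 0.66 ± 0.30 (Etv4 in the Ythdf1 knockout). Etv4 was a low gene, at 15.3 and 12.5 CPM in WT.

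The direct comparison of the triple with the Mettl3 knockout asks whether loss of the readers and loss of the writer have the same outcome. In it 11 of 31 members were called, 7 higher and 4 lower in the triple knockout, where 19% of all tested genes were called (10.5% higher and 8.5% lower) and 20.7% of the abundant ones, beside 10 of 21 abundant members. On the naive side 6 of 21 members were higher and 3 lower, and on the formative side Spry2 was higher and Fgf4 lower. The side medians were -0.00 and -0.08. Utf1 differed most among the called members, at 115 and 129 CPM against 62.4 and 60.9, a log2 difference of 0.99 ± 0.14 (adjusted p = 2.22e-06). Fbxo15 was higher by 0.86 ± 0.07 (adjusted p = 5.06e-17), Spry2 by 0.58 ± 0.14, Tbx3 by 0.48 ± 0.11, Nanog by 0.36 ± 0.07, and Tfcp2l1 and Klf5 by 0.27 ± 0.09 and 0.27 ± 0.08. Fgf4 was lower in the triple knockout by 0.75 ± 0.10 (adjusted p = 1.25e-08), Nr5a2 by 0.58 ± 0.12, Klf2 by 0.47 ± 0.08 and Esrrb by 0.30 ± 0.08.

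Of the 6 members that fell in both lines against WT (Lin28a, Klf4, Klf5, Tfcp2l1, Stat3 and Spry2), Klf5, Tfcp2l1 and Spry2 were thus lower in the Mettl3 than in the triple knockout. For Klf4 the difference was -0.01 ± 0.09, for Sox2 0.02 ± 0.07 and for Zfp42 -0.02 ± 0.08, none of which passed the test. DESeq2 kept Utf1, Nanog, Klf2, Fbxo15 and Fgf4. Leaving out 1 library ended 7 of the 11 calls. Those of Nanog (adjusted p = 0.0620) and Nr5a2 (0.100) needed replicate B of the Mettl3 knockout, and that of Esrrb needed its replicate A (0.0793). Tbx3 and Spry2 needed replicate A of the triple knockout (0.0734 and 0.105) and replicate B of the Mettl3 knockout (0.0581 and 0.331), and Klf5 needed replicate A of both (0.143 and 0.102). The Tfcp2l1 call was lost without any of the 4 libraries compared or without WT replicate B (0.0517 to 0.175).

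**Figure D3:**
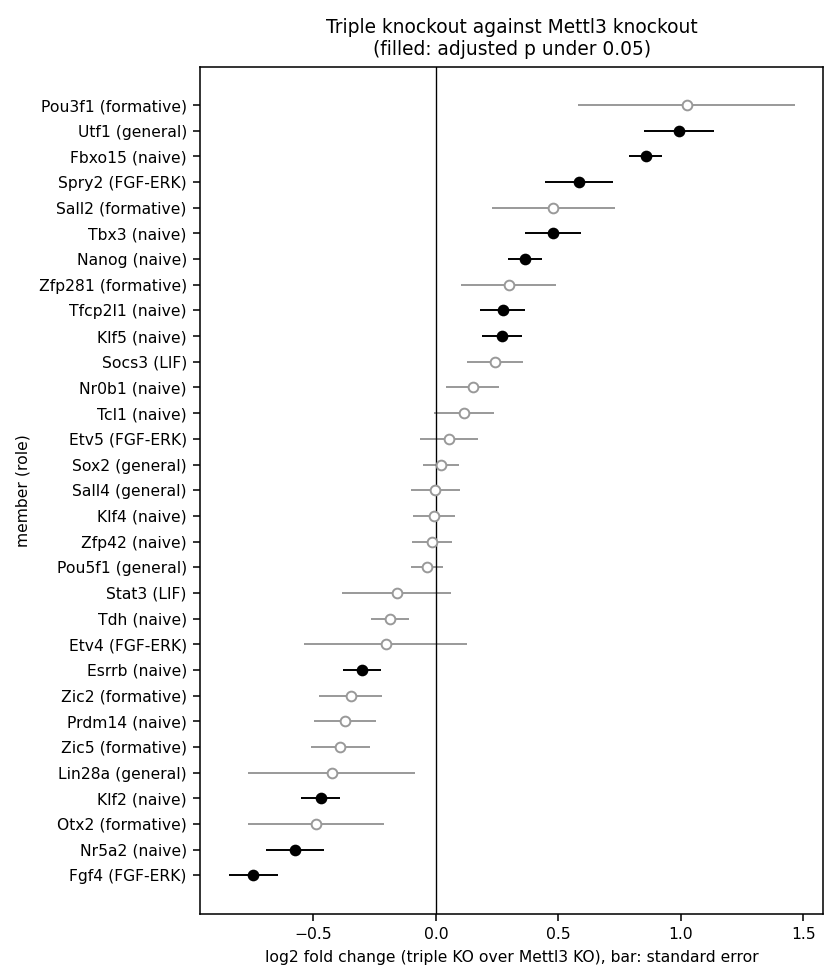
Points give the log2 fold change of each tested member in the triple over the Mettl3 knockout with its standard error, filled where the adjusted p is under 0.05. The error bars can be smaller than counting noise. Of the filled points, Utf1 and Fbxo15 lie farthest to the right and Fgf4 and Nr5a2 farthest to the left.

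Whether the triple knockout went beyond the single knockouts was tested against the mean of the 3 single lines. Here 14 of 31 members were called, 5 higher and 9 lower, where 16.7% of all tested genes were called (9.61% higher and 7.09% lower) and 19.3% of the abundant ones, beside 10 of 21 abundant members. Fbxo15 (0.83 ± 0.05, adjusted p = 3.14e-21), Nanog (0.37 ± 0.06) and Klf2 (0.34 ± 0.07) were higher in the triple knockout than in the mean of the singles. The formative factors Pou3f1 (1.47 ± 0.37) and Sall2 (0.73 ± 0.21) were higher as well. The members lower in the triple knockout were Klf5 (-0.54 ± 0.06, adjusted p = 2.32e-11), Lin28a (-0.90 ± 0.26), Otx2 (-0.73 ± 0.22), Tdh (-0.34 ± 0.06), Spry2 (-0.34 ± 0.10), Esrrb (-0.29 ± 0.06), Tbx3 (-0.28 ± 0.08), Tfcp2l1 (-0.28 ± 0.07) and Pou5f1 (-0.18 ± 0.05).

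The Otx2 levels show how this contrast can differ from the one against WT, since the singles lay above WT, at 32.2 to 48.9 CPM, and the triple knockout at 18.7 and 30.1. Esrrb, Tbx3 and Tfcp2l1 were near WT in the singles, with log2 values from -0.01 to 0.10, and lower in the triple knockout. For Spry2 the triple and single libraries overlapped, since the Ythdf2 knockout, at 146 and 150.1 CPM, was as low. DESeq2 kept Nanog, Klf5, Fbxo15 and Tdh. Leaving out 1 library kept Nanog, Klf2, Klf5, Esrrb, Fbxo15 and Tdh. It ended the call of Pou5f1 and Tfcp2l1 without triple knockout replicate B (adjusted p = 0.221 and 0.109) and of Pou3f1 without its replicate A (0.178). Lin28a, Tbx3, Otx2, Sall2 and Spry2 were each lost without at least 1 triple knockout library and 1 or more single knockout libraries. Lin28a needed both triple libraries, Ythdf1 replicate A and Ythdf3 replicate B (0.0814 to 0.269). Tbx3 needed both triple libraries and replicate A of Ythdf1 and of Ythdf3 (0.0515 to 0.394). Otx2 needed triple replicate A and replicate B of Ythdf1 and of Ythdf3 (0.0567 to 0.433), Sall2 both triple libraries and Ythdf1 replicate B (0.0576 to 0.289), and Spry2 triple replicate B and Ythdf1 replicate A (0.0674 to 0.465).

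**Figure D4:**
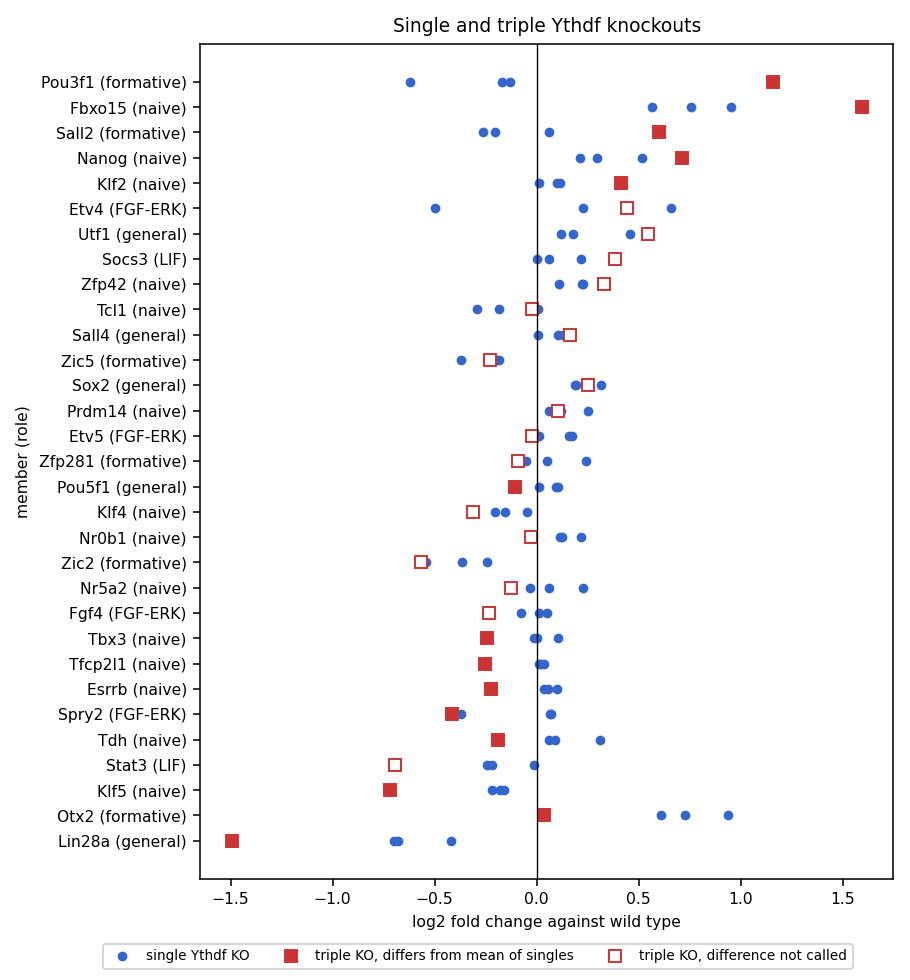
The log2 fold change over wild type of each tested member is given for the 3 single Ythdf knockouts (circles) and the triple knockout (square, filled where it differed from the mean of the singles at an adjusted p under 0.05). Fbxo15 and Nanog lie to the right of all their singles, Klf5 and Lin28a to the left, and Otx2 lies near 0 while its singles lie above 0.6.

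Further genes of the same pathways were taken from lists of known components, also chosen with earlier results of these data known. Their shares of called genes are set beside the 25.1% of all tested genes called in the triple and the 30.4% called in the Mettl3 knockout. In the LIF and JAK-STAT list 3 of 16 genes rose and 4 fell in the triple knockout, and 2 rose and 3 fell in the Mettl3 knockout, or 43.8% and 31.2% of the list, with median log2 fold changes of -0.07 and 0.03. Pim1, a kinase gene induced by Stat3, rose in both, from 135 and 130.2 CPM in WT to 232 and 234 in the triple (log2 0.81 ± 0.09) and 204 and 198 in the Mettl3 knockout (0.59 ± 0.09). Lifr, the LIF receptor, rose in the Mettl3 knockout by 0.72 ± 0.10, from 132 and 111 to 195 and 203 CPM. Gbx2, a homeobox target of Stat3, fell there (-0.69 ± 0.15), a call lost under DESeq2 (adjusted p = 0.0743) and without Mettl3 knockout replicate B (0.0569). Pramel6 and Pramel7, genes of the early embryo that act downstream of LIF, rose in the triple knockout from 5.41 and 5.35 to 159 and 141 CPM and from 0.901 and 2.67 to 101 and 95.8 CPM. In the Mettl3 knockout they stood at 3.29 and 8.20 and at 3.29 and 2.34 CPM, near WT, as were the 2-cell markers.

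In the FGF-ERK list 2 of 19 tested genes rose in the triple and 3 in the Mettl3 knockout, or 10.5% and 15.8% of the list, with medians of -0.11 and 0.05. Dusp4, a phosphatase that inactivates ERK, rose from 2.70 and 5.35 CPM in WT to 34.3 and 32.9 in the triple (log2 3.01 ± 0.41) and 29.6 and 26.9 in the Mettl3 knockout (2.75 ± 0.42). Dusp4 and Spry2, both feedback inhibitors of the pathway, therefore moved in opposite directions in these lines. Frs2, an adaptor of FGF receptors, stood at 54.1 and 52.6 CPM in WT and 82.1 and 85.5 in the Mettl3 knockout, where edgeR called it higher by 0.66 ± 0.15 on the log2 scale. The Frs2 call was lost under DESeq2 (adjusted p = 0.129) and without Mettl3 knockout replicate B (0.0659).

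In the Wnt and Tcf list 2 of 13 genes rose and 4 fell in the triple knockout, and 1 rose and 4 fell in the Mettl3 knockout, or 46.2% and 38.5%, with medians of -0.12 and -0.17. Cdx1, a homeobox target of Wnt, fell from 188 and 207 CPM in WT to 147 and 134 in the triple (-0.50 ± 0.10) and 52.6 and 65.6 in the Mettl3 knockout (-1.71 ± 0.12). Porcn, which acylates Wnt ligands, fell in the Mettl3 knockout by 0.74 ± 0.13 on the log2 scale. Axin2, a feedback target of Wnt, fell in both lines, by 0.75 ± 0.21 and 0.70 ± 0.20, and Lrp6, a Wnt co-receptor, rose in the triple knockout by 0.54 ± 0.14. DESeq2 did not call Cdx1 (adjusted p = 0.126), Axin2 (0.245) or Lrp6 (0.244) in the triple knockout, nor Axin2 in the Mettl3 knockout (0.209). Both Axin2 calls were lost without replicate A of the knockout (0.168 and 0.382), and that of Lrp6 without WT replicate B or triple knockout replicate B (0.142 and 0.168).

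In a wider list of 29 naive network genes 5 rose and 4 fell in the triple knockout, and 5 rose and 6 fell in the Mettl3 knockout, or 31% and 37.9%, with medians of -0.01 and -0.06. Dppa3 (Stella), a maternal factor that protects against DNA methylation loss, rose from 36.9 and 31.2 CPM to 154 and 139.6 in the triple (2.10 ± 0.15) and 96.9 and 123 in the Mettl3 knockout (1.71 ± 0.16). Dppa2, an activator of Dux and the 2-cell genes, rose in the triple knockout by 0.98 ± 0.09. Mybl2, a cell cycle transcription factor, fell in both lines, by 1.20 ± 0.12 and 0.91 ± 0.11. Jam2, a junction protein of stem cells, fell in both lines as well, from 176 and 185 CPM in WT to 79.6 and 84.9 in the triple (-1.13 ± 0.12) and 64.1 and 69.1 in the Mettl3 knockout (-1.42 ± 0.12).

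In a list of 18 tested formative and primed genes 2 rose and 3 fell in the triple knockout, and 3 rose and 8 fell in the Mettl3 knockout, or 27.8% and 61.1%, with medians of -0.14 and -0.42. Myc fell from 39.6 and 34.8 CPM in WT to 17.2 and 15.1 in the triple (-1.21 ± 0.28) and 3.29 and 8.20 in the Mettl3 knockout (-2.57 ± 0.35), while its paralog Mycn rose in both, by 0.43 ± 0.12 and 1.07 ± 0.10. The triple knockout call of Myc was lost under DESeq2 (adjusted p = 0.161) and without replicate B of that line (0.0517). That of Mycn was lost under DESeq2 (0.219) and without WT replicate A or triple knockout replicate A (0.0734 and 0.366). Plagl1, an imprinted zinc finger gene, fell in the Mettl3 knockout (-1.68 ± 0.18). Lefty2, a Nodal antagonist, fell in the triple (-0.63 ± 0.11) and in the Mettl3 knockout (-0.47 ± 0.10, a call lost under DESeq2 with adjusted p = 0.131). The SoxB1 gene Sox3 rose in the triple knockout from 9.01 and 8.02 to 39.0 and 26.0 CPM (1.90 ± 0.34). Among the genes named from these lists, Pim1, Pramel6, Pramel7, Dusp4, Cdx1, Axin2, Dppa3, Jam2, Mybl2, Lefty2, Plagl1 and Myc were also called by edgeR, in the direction given, in 1 or more single knockouts. Of those calls in single knockouts, the ones of Pramel6 and Dppa3 in the Ythdf1 and of Plagl1 in the Ythdf2 knockout were kept by DESeq2 and with each library left out.

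Markers of other lineages also differed between lines. The summed level of 6 neural markers found in the table was 99.0 to 107 CPM in WT, 137 to 145 in the triple and 207 to 218 in the Mettl3 knockout. The mesoderm and streak sum (5 of 8 listed genes) was 127 to 129.7 CPM in WT, 103 to 112 in the triple and 82.1 to 98.4 in the Mettl3 knockout, and that of primitive endoderm (8 of 10) was 436 to 439 in WT, 413 to 441 in the triple and 353 to 358 in the Mettl3 knockout. The trophoblast sum (5 of 8) was 170.3 to 176 CPM in WT, 192 to 215 in the triple and 244 to 281 in the Mettl3 knockout, and the fibroblast and feeder sum (5 of 9) was 210.4 to 225 in WT, 204 to 227 in the triple and 120 to 135 in the Mettl3 knockout. In the single knockouts the neural sum was 86.4 to 103 CPM and the feeder sum 150.0 to 216. Among the defining markers, Gata6, Sox17, Mesp1, Elf5, Pax6 and Col1a2 did not enter the test. Members of a list did not all follow its sum. T, the streak marker, fell from 22.5 and 23.2 CPM in WT to 7.80 and 5.48 in the triple and 0 and 1.17 in the Mettl3 knockout, while Gsc, a homeobox gene of the organizer, rose from 11.7 and 14.3 to 35.9 and 43.8 and to 44.4 and 51.5 CPM. The trophoblast factor Tfap2c rose in the Mettl3 knockout (log2 1.18 ± 0.12), while Cdx2, a defining factor of that lineage, fell from 19.8 and 18.7 CPM in WT to 1.56 and 5.48 in the triple and 0 and 1.17 in the Mettl3 knockout, and stood at 2.22 to 6.69 in the single knockouts. In the triple knockout DESeq2 called neither T (adjusted p = 0.115) nor Cdx2 (0.122), and the edgeR call of T was lost without replicate B of that line (0.0521). The part of these cells in the members' levels was not tested.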

How the data were processed

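The deposited stem cell table holds raw read counts per gene, made by the authors. Per the submitters' processing notes the build was mm10 (GRCm38) and the tools included STAR 2.4.2a, CASAVA 1.8.2, DESeq2 and cutadapt. What counted the reads, on which annotation, and whether duplicates were removed is not given in the sources used here. Poly(A) RNA was made into ScriptSeq libraries, per the labels' protocols. Every gene in the table reaches 6 counts in at least 1 library, and 24 further per-sample columns were not used.

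The counts of 12 libraries were fitted once with edgeR 4.0.16 under R 4.3.3, after filterByExpr (minimum count 10) and TMM scaling, by the robust quasi-likelihood test with Benjamini-Hochberg adjustment over 11951 genes. Levels are CPM after TMM scaling. In 11759 of these genes, and in 28 of 31 members, the fitted spread was below that of counting, and edgeR then takes no p below that of a Poisson test. Errors, unless called SD, are standard errors taken as the log2 fold change over the square root of the test's F statistic. Where the fitted spread is below counting, these errors can be smaller than counting noise. The p-value then does not follow from the error.

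The members and lists were chosen with earlier results of these data known. All members are named. From each further pathway list, up to 3 called genes with the smallest p in the triple and in the Mettl3 knockout are named, except for an item that is not reported here, with Zscan4c, T, Gsc, Tfap2c and Cdx2 as examples of marker lists chosen after their values were seen. Motifs and exon lengths were read in Python 3.11.15 from GENCODE M21, and promoters came from RefSeq.

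Alternatives were RLE scaling, no filter, a minimum count of 30, fits to the compared groups, DESeq2 1.42.0, a block for the replicate letter, and each library left out in turn. The germ cell experiments were not used here.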

Additional observations from a re-analysis of the deposited data

How the results depend on the processing

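DESeq2 called fewer members than edgeR: 1 in the Ythdf1 and 1 in the Ythdf2 knockout, 4 in the triple, 8 in the Mettl3 knockout, 5 between triple and Mettl3 knockout and 4 between triple and mean of singles, with 2 in the Ythdf3 knockout. Over all genes it called 785 against 2996 in the triple, 1241 against 3630 in the Mettl3, 56 against 412 in the Ythdf1, 11 against 228 in the Ythdf2 and 29 against 340 in the Ythdf3 knockout, and 678 against 2272 and 538 against 1995 in the last pair of contrasts. The cause was not tested. Leaving out 1 library gave 1 to 6 called members in the Ythdf1, 2 to 5 in the Ythdf2, 2 to 3 in the Ythdf3, 8 to 17 in the triple and 12 to 16 in the Mettl3 knockout, 7 to 11 between triple and Mettl3 knockout and 8 to 14 between triple and mean of singles. Libraries with the same letter did not deviate together (correlation between -0.000967 and 0.116, median 0.0335, over 0.1 in 1 of 15 pairs of groups), so the letter was not taken as a pairing. With the letter as a replicate block the calls were 5, 5, 4, 17, 16, 11 and 14 for Ythdf1, Ythdf2, Ythdf3, triple, Mettl3, triple against Mettl3 and triple against singles. Nanog in the Ythdf2 and Klf5 in the Ythdf3 knockout were added. Under RLE scaling the counts were 5, 4, 3, 17, 16, 11 and 14. Over all alternatives 3726 of the members' fold changes kept their side of the threshold, most of them uncalled or called in both fits, 144 lost a call and 11 gained one. A change of sign was counted only where the value was called in either fit, and 0 such changes were found. At library totals of 612598 to 1111764 counts, Fgf5 gave at most 9 counts in a library and was not tested, and low members such as Pou3f1 carry the largest standard errors.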
